A study of Mus musculus with 4 samples.

Results

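The CCN genes encode secreted matricellular proteins, which sit in the extracellular matrix without building it and alter how cells respond to growth factors and adhesion. The 5 genes described are Ctgf, Cyr61, Nov, Wisp1 and Wisp2 (now Ccn2, Ccn1, Ccn3, Ccn4 and Ccn5), taken by symbol from the 47643 genes of the deposited table, where each has 1 row. Their levels were compared between cells sorted from mouse femoral periosteum, the sheath of connective tissue on the outside of bone. Cells with a history of Sox9 expression carried a red label and were set against unlabelled cells of the same digests, to ask how the labelled cells differ.

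The TdTomato-positive and TdTomato-negative groups hold 2 libraries each, from 2 collections. All mice had the genotype Sox9CreErt2:TdTomato, with a single Sox9CreErt2 allele, which makes a tamoxifen-dependent Cre recombinase from the Sox9 locus, and a single Td-Tomato allele at ROSA26, which Cre switches on. Both groups came from animals injected 3 times at 48 h intervals with 100 µL of tamoxifen at 20 mg/mL, whose uninjured femora were taken after 2 weeks. Cells of both groups were freed by digestion with Liberase at 100 µg/mL for 2 h at 37 °C, with shaking at 100 rpm. The negative cells are thus cells of treated mice without the red label, and no sort against blood cells is named in the labels. About 10000 cells of each kind were pooled from 18 femora of 9 mice, so the libraries vary as pools, and no p-value here measures the spread between animals. No age or sex is used here.

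CCN proteins are built from a set of modules, an insulin-like growth factor binding domain, a von Willebrand type C domain, a thrombospondin type 1 repeat and a C-terminal cystine knot, and they act mainly through integrins and heparan sulphate proteoglycans. Ctgf and Cyr61 are the usual reporters of YAP and TAZ, the coactivators held back by the Hippo kinases, which act through TEAD transcription factors. Cyr61 is also an immediate early gene of serum stimulation. In the skeleton, Ctgf is needed for normal growth plate cartilage in mice, Cyr61 promotes vessel growth, Nov restrains osteoblast differentiation, Wisp1 is made by osteoblast precursors and Wisp2 is made by osteoblasts and fibroblasts.

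The modular plan shows in the gene structures of GENCODE on GRCm38 (mm10). Ctgf (ENSMUSG00000019997.11) lies on chromosome 10, 24595442 to 24598683, plus strand, with 5 coding exons and 1044 coding bases. Cyr61 (ENSMUSG00000028195.4) lies on chromosome 3, 145646976 to 145649981, minus strand, with 5 coding exons and 1137 coding bases. Nov (ENSMUSG00000037362.8) and Wisp1 (ENSMUSG00000005124.9) share chromosome 15, plus strand, at 54745702 to 54754039 and at 66891320 to 66923201. They have 5 coding exons each, with 1062 coding bases in Nov and 1101 in Wisp1. Wisp2 (ENSMUSG00000027656.7), on chromosome 2, 163820861 to 163833146, plus strand, is the short one, with 4 coding exons and 753 coding bases, and its protein lacks the cystine knot. Ctgf is the only member that overlaps another gene of the table, the antisense transcript Gm15270. No label gives the strand setting of the counting, so reads from that overlap cannot be told apart, although Gm15270 stayed below 0.1 RPKM in each library in the assignment used.

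The promoter of Cyr61 shows the kind of sequence through which a YAP and TEAD target is read, and the levels of such targets are given further on. It is printed from RefSeq on GRCm38.p6 as chr3:145649936-145650235, minus strand, 250 bases before the gene's start and 50 after it, and Cyr61 is the 1 member matched in that table. In capitals are, in order, a TEAD motif (GGAATG, found here as its reverse complement), the half-site of a cyclic AMP response element (TGACG, also in reverse complement) and a TATA box (TATAAA).

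Cyr61 promoter: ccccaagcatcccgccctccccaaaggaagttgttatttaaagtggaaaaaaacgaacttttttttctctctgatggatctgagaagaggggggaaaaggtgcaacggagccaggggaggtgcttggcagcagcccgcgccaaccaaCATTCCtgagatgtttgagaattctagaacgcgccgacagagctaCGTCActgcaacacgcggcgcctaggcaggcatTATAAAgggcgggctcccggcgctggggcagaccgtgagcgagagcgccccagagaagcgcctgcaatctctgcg

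Searched on both strands, the TEAD letters occur in 14.7% of the 32851 promoter windows of the RefSeq table, the half-site in 20.8% and the TATA letters in 13.6%. None of the marked stretches overlaps another. They begin at positions -103, -58 and -25 relative to the gene's start. Of 22 other YAP and TEAD target genes, 14 had a promoter window in the table, and 5 of these (Ajuba, Amotl2, Ankrd1, Axl and Crim1) held the TEAD letters, or 35.7%, against 16.6% of all genes with a window. Such matches describe letters only.

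The deposited table gives group means and no column per library, but its columns fix a pair of values in each group for each gene. They were recovered as reads per kilobase of genomic span per M reads (RPKM, where M is 1000000), and which value belongs to which library could be assigned in both groups for 60.7% of genes with at least 10 reads in 2 libraries. Libraries are named by the depth recovered with these values, since no value carries a collection number. The positive libraries had depths of 32.0 and 41.6 M, and the negative libraries of 17.0 and 74.0 M. Sox9 itself, whose locus drives the label, had 16.4 and 4.51 RPKM in the positive libraries, against 3.32 and 0.0244 RPKM in the negative ones. The negative library of 74.0 M reads stood apart. Each of 8 tendon and fibroblast markers was at 0.214 RPKM or less there, while the leukocyte gene Cd53 had 1.45 and 6.18 RPKM in the positive libraries, against 8.47 and 19.2 RPKM in the negative libraries of 17.0 and 74.0 M. The log2 folds of the CCN genes and the medians of the related lists are therefore also given without that library.

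All 5 CCN genes had higher mean levels in TdTomato-positive cells, against 53.9% of genes with at least 10 reads in 2 libraries that had a log2 fold above 0, with log2 folds (positive over negative, on RPKM + 0.1) from 2.27 for Wisp1 to 5.40 for Ctgf. None passed the threshold in the authors' deposited table, a false discovery rate (FDR) of 0.05, which 0.0063% of its genes passed in this direction. Its unadjusted p was below 0.05 for 4 of the 5, all except Wisp1, against 0.598% of all its genes in the positive direction, or 1.58% of genes with that many reads. That p did not simply follow a gene's own spread between libraries. It was 0.0144 for Col9a1, between 0.787 and 1.44 RPKM in positive cells, and 0.0146 for Ppbp, at 1.15 and 611 RPKM there, with log2 folds of 3.54 and 3.66. For the same folds of the 5 CCN genes, limma gave unadjusted p from 0.0989 to 0.287. The positive and negative libraries did not overlap in 2 of the 5, Cyr61 and Wisp2, with the positive ones higher, as in 14.6% of genes with that many reads. The negative library of 74.0 M reads was the lowest of the 4 for every member, and for 28% of genes whose values could be assigned to libraries. The positive library of 32.0 M reads was the highest for the 4 members with assigned values, against 37.6% of such genes.

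**Figure D1:**
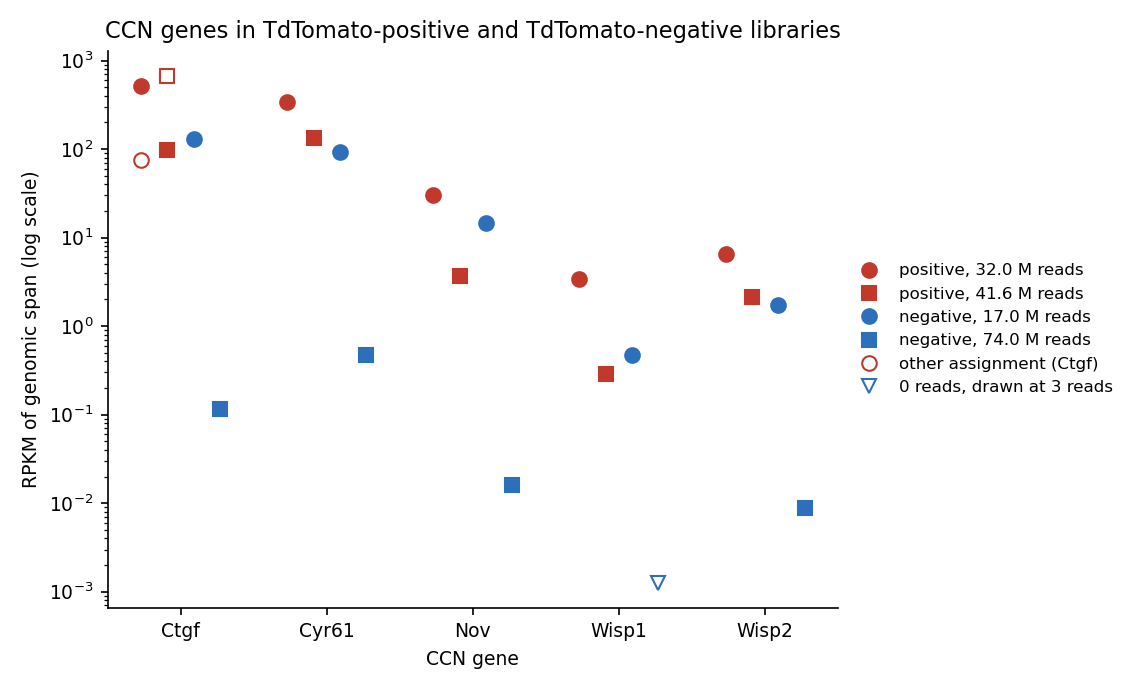
RPKM of genomic span on a log axis for the 5 CCN genes, with 1 point per library, positive libraries in red and negative ones in blue. Open red points give the other possible assignment of the Ctgf values, and the open triangle is a count of 0, drawn at the level of 3 reads; the negative library of 74.0 M reads is lowest for every gene, while that of 17.0 M reads lies among or just under the positive ones.

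Ctgf, the connective tissue growth factor, was at 74.4 RPKM or more in 3 of the 4 libraries. Its 2 positive values are either 513 and 96.9 RPKM in the libraries of 32.0 and 41.6 M reads, or 74.4 and 668 RPKM, because its reads were fractional and neither assignment gave whole numbers. The negative values were 128 RPKM in the library of 17.0 M reads and 0.117 RPKM, from 28 reads, in that of 74.0 M reads. Under either assignment a negative library lay between the positive ones, so the groups overlapped. The log2 fold of 5.40 does not depend on the assignment. The authors' deposited table lists Ctgf with a p of 0.000338 and an FDR of 0.756, the gene with the 21st lowest p. The log2 fold was 0.80 without the negative library of 74.0 M reads.

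Cyr61, the angiogenic member, separated the groups. Its level was 336 and 134 RPKM in the positive libraries of 32.0 and 41.6 M reads, against 93.6 and 0.472 RPKM in the negative ones of 17.0 and 74.0 M. These levels rest on 32311 and 16762 reads in positive cells and on 4778 and 105 in negative cells. The lower positive library was 1.43 times the higher negative one, a gap larger than counting error, with 95% exact Poisson limits of 132 to 136 RPKM for that positive library and 91.0 to 96.3 RPKM for that negative one. These limits cover counting error only. The means were 235 ± 143 RPKM in positive cells and 47.1 ± 65.9 RPKM in negative cells (SD, n = 2 each), so the means differed by more than either SD. The log2 fold of 4.86 had a p of 0.00132 and an FDR of 1.00 in the authors' deposited table. Without the negative library of 74.0 M reads it was 1.18.

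Wisp2, the member without a cystine knot, ordered the libraries as Cyr61 did, at a lower level. Its level was 6.51 and 2.13 RPKM in the positive libraries of 32.0 and 41.6 M reads, against 1.75 and 0.00880 RPKM in the negative libraries of 17.0 and 74.0 M. The lower positive and the higher negative library were 1.22-fold apart, with Poisson limits of 2.01 to 2.26 RPKM for that positive library and 1.57 to 1.93 RPKM for that negative one, and the groups did not overlap. The level in the negative library of 74.0 M reads rests on 8 reads. The log2 fold was 3.10, with a p of 0.0322 and an FDR of 1.00 in the authors' deposited table, and 1.06 without that library.

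Nov, which restrains osteoblast differentiation, had overlapping groups. Its level was 30.3 and 3.64 RPKM in the positive libraries of 32.0 and 41.6 M reads, against 14.7 and 0.0162 RPKM in the negative ones of 17.0 and 74.0 M. The negative library of 17.0 M reads was thus higher than a positive one, which held 0.248 times its level. The authors' deposited table gives Nov a p of 0.0388 and an FDR of 1.00, with a log2 fold of 3.02. With the negative library of 74.0 M reads left out it was -0.47, so that the direction turned. If the libraries of 32.0 and 17.0 M reads are of the same collection, Nov was higher in the positive library of both collections; under the other pairing it was higher in 1 of 2. The same holds for Wisp1.

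Wisp1, a Wnt-inducible member made by osteoblast precursors, was the least expressed of the 5 per kilobase of mRNA. Its values were 3.37 and 0.287 RPKM in the positive libraries of 32.0 and 41.6 M reads, from 3432 and 381 reads. The negative library of 17.0 M reads held 258 reads, or 0.477 RPKM, and that of 74.0 M held 0, which allows a level of up to 0.00127 RPKM (3 reads). The groups overlapped, and the library of 32.0 M reads alone stood above the negative libraries. The log2 fold of 2.27 depends on the offset of 0.1, since a library was at 0. It was 1.01 without that library, and 0.69 if the positive library of 32.0 M reads was left out. In the authors' deposited table the p was 0.117 and the FDR 1.00.

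The sixth gene of the family, Wisp3 (Ccn6), was close to silent, with 7 and 2 reads in positive cells, against 2 and 0 in negative cells. A difference was not detectable at this depth.

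Leaving out a library in turn showed how far each fold leaned on it. In limma on log2(RPKM + 0.1), over genes with at least 10 reads in 2 libraries, the log2 folds without the negative library of 17.0 M reads were 10.01 for Ctgf, 8.54 for Cyr61, 6.52 for Nov, 5.14 for Wisp2 and 3.53 for Wisp1. Leaving out the positive library of 32.0 M reads gave 4.20, 4.20, 1.51, 2.32 and 0.69 in the same order, and leaving out that of 41.6 M reads gave 6.60, 5.52, 4.53, 3.88 and 3.85. These folds of Ctgf without a positive library hold for the assignment of its values given first. No member had a limma adjusted p below 0.05 with any library left out, the lowest being 0.466. Exact permutation of 2 against 2 libraries cannot give a two-sided p below 0.333.

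**Figure D2:**
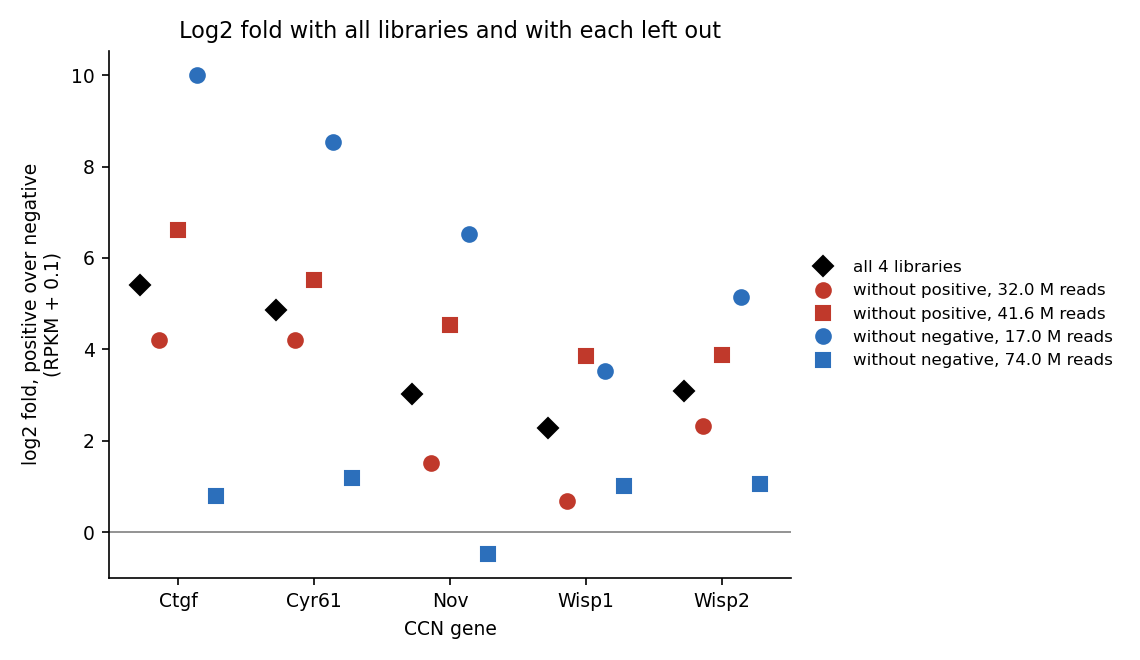
Log2 fold of positive over negative cells on RPKM + 0.1 for each CCN gene, with all 4 libraries (black) and without each library in turn (red circle and square for the positive libraries of 32.0 and 41.6 M reads, blue for the negative ones of 17.0 and 74.0 M). With the negative library of 74.0 M reads left out the folds lie between -0.47 and 1.18, and without that of 17.0 M reads between 3.53 and 10.01.

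The authors' ratios are of arithmetic means, on a scale that divides each library by its depth once more. The authors' deposited table lists ratios of means of 2.43 for Ctgf, 2.49 for Cyr61, 1.19 for Nov, 3.34 for Wisp1 and 2.36 for Wisp2. Multiplied by the genomic span in kilobases, the group means of the authors' deposited table were 9.19 in positive and 3.79 in negative cells for Ctgf and 6.88 and 2.76 for Cyr61. The same products in the authors' deposited table were 0.520 and 0.436 for Nov, 0.0589 and 0.0177 for Wisp1 and 0.130 and 0.0551 for Wisp2. With that extra division undone and the offset of 0.1 also removed, the ratio of mean RPKM was 4.74 for Ctgf in the assignment used. It was 4.999 for Cyr61, 2.31 for Nov, 7.67 for Wisp1 and 4.93 for Wisp2.

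Levels can be compared between members only per length of mRNA, because their spans run from 3.01 kb for Cyr61 to 31.9 kb for Wisp1, introns included. As reads per M per kilobase of mRNA, the positive library of 32.0 M reads held 501 for Cyr61, 87.9 for Nov, 46.5 for Wisp2 and 21.1 for Wisp1, and 693 or 101 for Ctgf. That of 41.6 M reads held 200 for Cyr61, 15.2 for Wisp2, 10.6 for Nov and 1.80 for Wisp1, and 131 or 903 for Ctgf. In the negative library of 17.0 M reads the order was Ctgf at 174, Cyr61 at 139, Nov at 42.7, Wisp2 at 12.5 and Wisp1 at 2.98. In that of 74.0 M reads it was Cyr61 at 0.703, Ctgf at 0.158, Wisp2 at 0.0629, Nov at 0.0471 and Wisp1 at 0. Ctgf and Cyr61 thus led in all 4 libraries and Wisp1 came last in all 4. Nov and Wisp2 changed places between libraries, within the positive group as well, so their order was not settled.

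Members kept different proportions to Cyr61, computed per kilobase of mRNA within each library. Wisp2 stood at 9.29% and 7.64% of Cyr61 in the positive libraries and at 8.95% and 8.95% in the negative ones. Its proportion was therefore nearly level while its RPKM ran from 0.00880 to 6.51, although 8 reads carry the last value. Nov varied far more, with 17.6% and 5.30% of Cyr61 in positive cells and 30.6% and 6.70% in negative cells, as did Wisp1, with 4.21% and 0.900% in positive cells and 2.14% and 0% in negative cells.

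Markers of some other cell types moved with these genes across the libraries, and those of others did not. The 4 tendon and fibroblast markers of 8 with assigned values (Scx, Tnmd, Fmod and Thy1) summed to 283 and 58.8 RPKM in the positive libraries of 32.0 and 41.6 M reads and to 68.3 and 0.238 RPKM in the negative ones of 17.0 and 74.0 M. The 4 assigned CCN genes, without Ctgf, summed to 377 and 140 RPKM in the positive libraries, against 111 and 0.497 RPKM in the negative libraries. Most of this sum was Cyr61, with 336 and 134 RPKM in positive and 93.6 and 0.472 RPKM in negative cells. Both sums were highest in the positive library of 32.0 M reads and lowest in the negative one of 74.0 M, and they ordered the middle libraries differently. Nov and Wisp1, however, ordered all the libraries as the tendon and fibroblast sum did.

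Vessel cells also express Ctgf and Cyr61. The 7 endothelial markers of 8 with assigned values summed to 15.8 and 29.0 RPKM in positive cells and to 18.9 and 0.233 RPKM in negative cells, with Cldn5 at 0 reads in the library of 74.0 M. The marker outside this sum, Pecam1, lay between 0.373 and 0.654 RPKM in TdTomato-positive cells and was at 0.538 and 0.403 RPKM in negative cells, so that it was not low in that library. The 5 smooth muscle and pericyte markers of 8 summed to 19.6 and 10.4 RPKM in positive cells and to 16.2 and 0.218 RPKM in negative cells, with Cspg4 at 0 in that library and Acta2, outside the sum, at 0.762 RPKM there. For bone, the 3 osteoblast markers of 7 summed to 64.4 and 10.3 RPKM in positive cells and to 7.48 and 0.0615 RPKM in negative cells. Spp1, outside that sum, lay between 162 and 432 RPKM in positive and between 6.18 and 94.0 RPKM in negative cells. Cartilage markers (4 of 8) gave 8.63 and 16.7 RPKM in positive cells and 0.190 and 0.0258 RPKM in negative cells, so that both negative libraries were low in them, with Acan and Matn3 at 0 in that of 74.0 M reads.

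Neutrophil and B-cell sums were highest in the library where the CCN genes were lowest. The 3 neutrophil markers of 7 with assigned values (Ngp, Camp and Elane) summed to 761 and 4479 RPKM in the positive libraries and to 2583 and 6324 RPKM in the negative ones. Ngp was highest in the negative library of 74.0 M reads, whereas Camp and Elane were highest in the positive one of 41.6 M. The 3 assigned B-cell markers of 5 summed to 5.88 and 21.2 RPKM in positive libraries and 7.31 and 67.6 RPKM in negative libraries. Platelet markers (Ppbp and Gp9, 2 of 5) were at 2.06 and 657 RPKM in positive cells and at 8.41 and 1.95 RPKM in negative cells. The part of these cell mixtures in the CCN differences was not tested, and in bulk RNA fewer cells of a type and less RNA per cell cannot be told apart.

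**Figure D3:**
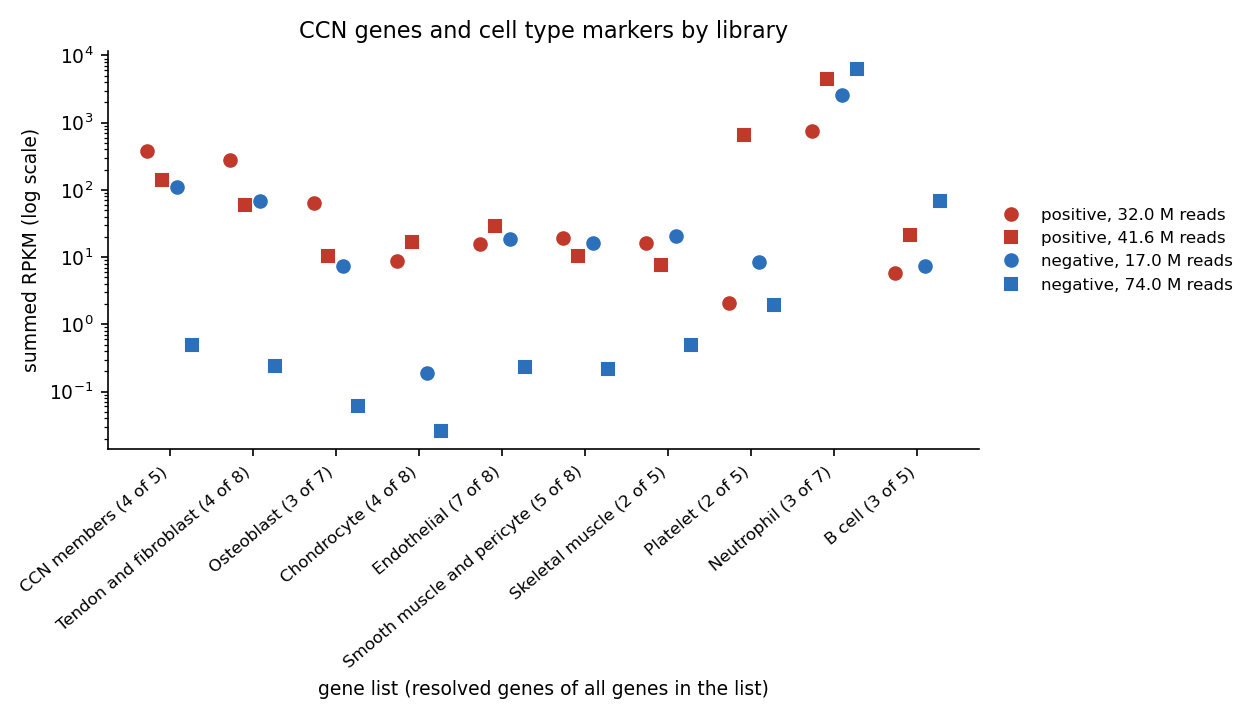
Summed RPKM on a log axis of the CCN genes and of cell type markers whose library values were assigned (numbers of genes in brackets), by library, positive in red and negative in blue. The CCN sum, which is mostly Cyr61 and leaves out Ctgf, is at 377 and 140 RPKM in positive and 111 and 0.497 RPKM in negative cells. It is lowest in the negative library of 74.0 M reads, as are the connective tissue, bone, cartilage, endothelial, pericyte, platelet and muscle sums. The neutrophil and B-cell sums are highest there.

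Genes with the most similar profile were sought for the 4 members with assigned values. Likeness was the Euclidean distance over 4 libraries of centred log2(RPKM + 0.1), among 2746 genes with assigned values and a mean of at least 1 RPKM. Nearest to Cyr61 were Fibin, Prkcdbp and Fmod, a small proteoglycan of tendon and cartilage, at distances of 0.670, 0.677 and 0.866. Nearest to Nov were Ccl11, the chemokine eotaxin, Ogn, a small proteoglycan of bone and fibroblasts, and Entpd2, an enzyme that splits extracellular ATP, at 0.351, 0.552 and 0.569.

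Wisp1 was closest to Tmem119, a membrane protein of osteoblasts, Pacsin3 and C130023A14Rik, at distances of 0.537, 0.576 and 0.607. Wisp2 was closest to Mt1, a metallothionein, Hoxc10, a homeobox gene of the hind limb, and Ppic, a cyclophilin, at 0.0467, 0.140 and 0.212. No member was among the 3 nearest of another. The closest pair of members was Wisp1 and Wisp2, at a distance of 1.78, and the farthest was Cyr61 and Wisp1, at 4.48. All these distances share 4 libraries and depend on the offset, since Nov, Wisp1 and Wisp2 had less than 0.1 RPKM in that of 74.0 M reads. Mt1, with 532 and 188 RPKM in positive and 151 and 8.88 RPKM in negative cells, thus lay near Wisp2 although its highest and lowest RPKM differ by a smaller fold than those of Wisp2.

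The Hippo pathway holds YAP and TAZ in check. Of its 22 listed genes, 14 had a higher and 8 a lower level in positive cells, and their median log2 fold was 0.24, beside 0.057 over all 17167 genes with at least 10 reads. Over its 17 assigned genes the median was 0.55, and 0.077 when the negative library of 74.0 M reads, the lowest of the 4 for 8 of them, was left out. A p below 0.05 in the authors' deposited table was found for 0 of them. Wwtr1, which encodes TAZ, had 1.36 and 0.352 RPKM in the positive libraries, against 0.738 and 0.000449 RPKM in the negative ones, the order of Nov and Wisp1, which 10.7% of genes with assigned values shared. Yap1 lay between 0.219 and 0.599 RPKM in TdTomato-positive cells and was at 0.184 and 0.00800 RPKM in negative cells, without overlap. Positive cells were higher without overlap for 4 of the 22 genes, and for 14.6% of genes with at least 10 reads. The kinase gene Stk4, with the lowest p among the lower ones, was at 0.170 and 0.639 RPKM in positive cells and between 0.604 and 4.06 RPKM in negative cells. Mob1a, a kinase cofactor with the highest mean RPKM of the list, lay between 2.60 and 7.50 RPKM in positive and between 3.78 and 31.4 RPKM in negative cells.

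Other target genes of YAP and TEAD had log2 folds on both sides of 0. Of 22, 16 had a higher level in positive cells and 6 a lower one, and the median log2 fold was 0.37. Over the 14 assigned genes the median turned to -0.17 when the negative library of 74.0 M reads, the lowest for 11 of them, was left out, and to -0.15 without the positive one of 32.0 M. A p below 0.05 in the authors' deposited table was found for 2 of the higher ones, Igfbp3 and Ccdc80. In this direction 0.598% of all its genes had such a p, and 1.58% of genes with at least 10 reads in 2 libraries. Igfbp3, a carrier of insulin-like growth factors, lay between 6.90 and 60.8 RPKM in TdTomato-positive cells, against 10.6 and 0.0121 RPKM in negative cells. Ankrd1, a muscle ankyrin protein often read as a YAP target, was at 0.214 and 0.0885 RPKM in positive cells and at 0.411 and 0 RPKM in negative cells. Amotl2, an angiomotin, was at 4.58 and 1.11 RPKM in positive cells and at 2.64 and 0.549 RPKM in negative cells. Gadd45b, a stress gene, was at 126 and 159 RPKM in positive cells and at 75.1 and 47.6 RPKM in negative cells. It was lowest in the library of 74.0 M reads. Its groups did not overlap, the positive cells being higher, as in 14.6% of genes with at least 10 reads. Gadd45a lay between 41.4 and 111 RPKM in positive and between 31.1 and 277 RPKM in negative cells. Its groups overlapped whichever assignment holds. Nuak2 had 0.786 and 1.29 RPKM in positive cells and lay between 1.26 and 11.1 RPKM in negative cells. Whether its groups overlapped depended on the assignment of its negative values, so this was not settled.

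The receptors and partners of CCN proteins were mixed as well. Of 25 genes, 17 had a higher and 8 a lower level in positive cells, and the median log2 fold was 0.47. Over the 9 assigned genes it was 0.64, and 0.27 when the negative library of 74.0 M reads, the lowest for 6 of them, was left out. A p below 0.05 in the authors' deposited table was found for 2 of the higher and 1 of the lower. The shares of all its genes were 0.598% in the higher and 0.296% in the lower direction. Among genes with at least 10 reads they were 1.58% and 0.647%. The higher ones were the proteoglycans Bgn and Dcn. Bgn lay between 12.6 and 143 RPKM in TdTomato-positive cells and was at 17.7 and 0.0504 RPKM in negative cells. Dcn lay between 22.5 and 254 RPKM in TdTomato-positive cells, against 51.5 and 0.0689 RPKM in negative cells. The lower one was Itgam, the alpha chain of the leukocyte integrin that binds Ctgf and Cyr61, between 0.350 and 2.39 RPKM in positive cells and between 3.60 and 19.0 RPKM in negative cells. Its groups did not overlap, the negative cells being higher, as in 11.2% of genes with at least 10 reads.

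Further receptor genes of the list went in both directions. Log2 folds were 1.62 for Itgb5, 1.32 for Sdc4, 1.52 for Lrp1 and -1.15 for Notch1. The integrin chains Itgav, Itgb1 and Itgb3 had smaller ones, of 0.47, 0.24 and -0.019. Itgb5, a partner of the alpha v integrin chain, lay between 0.444 and 2.13 RPKM in TdTomato-positive cells and was at 0.685 and 0.0630 RPKM in negative cells. Sdc4, a heparan sulphate proteoglycan, was at 10.7 and 7.18 RPKM in positive cells, above 4.93 and 2.40 RPKM in negative cells. Lrp1, an endocytic receptor of Ctgf, lay between 1.19 and 14.5 RPKM in TdTomato-positive cells, against 4.31 and 0.421 RPKM in negative cells. Notch1, which Nov can bind, lay between 0.377 and 0.708 RPKM in positive and between 0.282 and 4.84 RPKM in negative cells. Of Itgb5, Sdc4, Lrp1 and Notch1, Sdc4 alone had groups that did not overlap whichever assignment holds. Its positive cells were higher, as in 14.6% of genes with at least 10 reads. Whether the groups of Notch1 overlapped depended on the assignment of its negative values.

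Immediate early genes, to which Cyr61 belongs by its response to serum, ran from Egr3, below 1 RPKM in each library, to genes such as Junb. Of 20 genes, 13 had a higher and 7 a lower level in positive cells, and the median log2 fold was 0.22. Over the 10 assigned genes it was -0.21, and -0.087 when the negative library of 74.0 M reads, the lowest for 3 of them, was left out. A p below 0.05 in the authors' deposited table was found for 0 of them. Their 10 members with assigned values summed to 1157 and 1670 RPKM in positive cells and to 1214 and 1192 RPKM in negative cells. The similar negative sums cover genes that went both ways. Junb and Ier3, among others, were lower in the library of 74.0 M reads than in that of 17.0 M, and Btg2, among others, was higher. A link of these levels to that of Cyr61 was not tested. Ier3 was at 255 and 274 RPKM in positive cells and at 147 and 80.4 RPKM in negative cells. Junb was at 591 and 790 RPKM in positive cells and at 605 and 446 RPKM in negative cells. Both were picked after their values were seen. Klf4, with the lowest p among the higher ones, lay between 29.4 and 86.4 RPKM in TdTomato-positive cells, against 27.8 and 9.15 RPKM in negative cells. Btg2, with the lowest p among the lower ones, was at 41.7 and 77.3 RPKM in positive cells and at 122 and 219 RPKM in negative cells. The heat shock genes Hspa1a and Hspa1b, whose near-identical sequences make the split of reads between them uncertain, had the highest mean RPKM of the list. Hspa1a lay between 1722 and 2937 RPKM in positive and between 307 and 8980 RPKM in negative cells. Hspa1b lay between 2089 and 3815 RPKM in positive and between 399 and 12301 RPKM in negative cells.

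**Figure D4:**
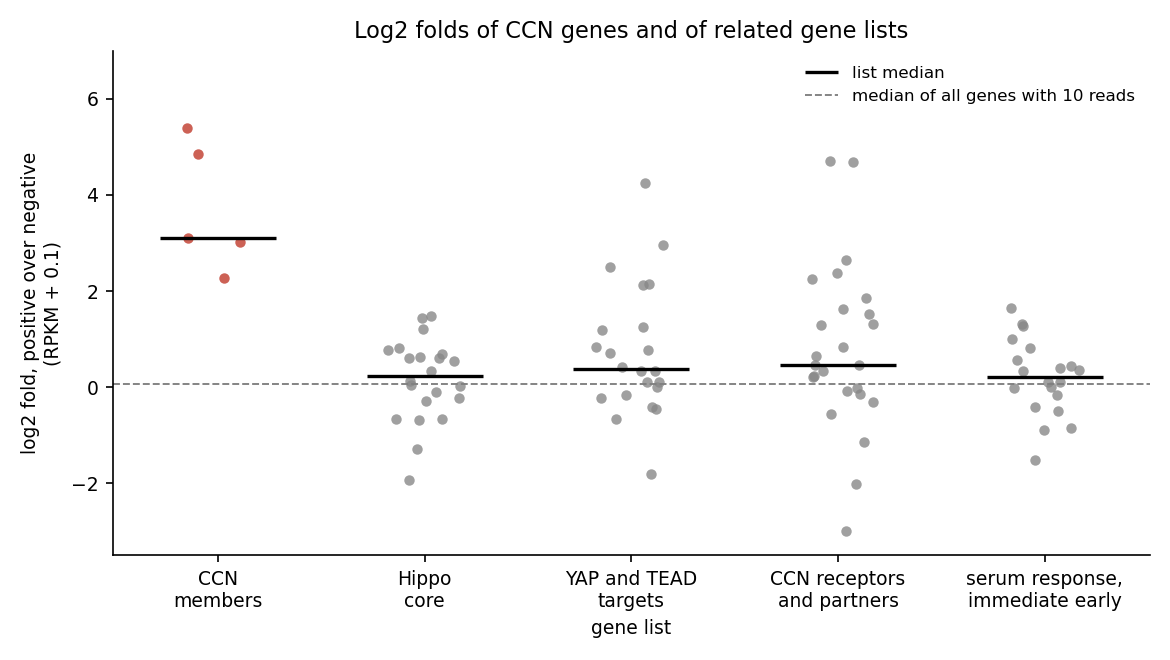
Log2 fold of positive over negative cells on RPKM + 0.1 for each CCN gene (red) and for the genes of related lists (grey), with list medians as black bars. The CCN genes lie from 2.27 to 5.40, while the medians of the other lists lie from 0.22 to 0.47, beside 0.057 over all genes with 10 reads (dashed).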

How the data were processed

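RNA of sorted periosteal cells was sequenced in 4 libraries as read pairs of 75 nucleotides, per the series' design text. The submitters' processing notes name STAR, Partek and the build mm10, without versions. The deposited table holds, per the file headers, group means of a normalized signal, a highest value (used as a score), a natural log difference, a ratio, a signed fold change (a score), an Akaike score, and the authors' p-value and FDR (step-up) of a shrinkage model on lognormal values. It has no library columns. The 2 means together with the highest value and log difference gave, for each of 47643 genes, exactly 1 pair of values in each group, in no known order, matching (RPKM of genomic span + 0.1) divided again by depth and span. The offset, depths and scale are inferences from these values. As a check, the Akaike score less 2 times the summed log values stayed between 24.5 and 25.8, while the score itself ran from -88.7 to 73.3.

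Which value belongs to which library was taken from the assignment giving whole reads (within 0.01 reads plus 5e-06 of the reads and of the offset, up to 0.05), or no negative reads. Of 17191 rows with at least 10 reads in 2 libraries, 60.7% were assigned in both groups, and for others the text gives ranges over both possibilities. Intervals are exact Poisson limits. The main test is the authors' FDR. Limma 3.58.1 (R 4.3.3) on log2 values was the alternative. Both the recovery and limma were tested on simulated data. The first simulation took the inferred offset and scale as given, so it cannot test them. The second set a smaller spread between libraries than the CCN genes had, so it does not show limma's power for them. Where a symbol has several rows, that with most reads was used. Named list genes are those with the lowest p in each direction and the 2 highest means of each list; any further gene named from a list was chosen after its values were seen, except receptors and partners, all open to naming. Members and lists were chosen with earlier results of these data known.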

Additional observations from a re-analysis of the deposited data

How the results depend on the processing

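Over 60 alternative values of the 5 log2 folds, 59 kept the direction and none passed an adjusted p of 0.05, with limma adjusted p from 0.352 to 0.9996. The 60 include limma fits with all libraries at the same offset of 0.1 and the fits with a replicate block. Those return the main fold by construction, so the 59 overstate how stable the direction was. The exception was Nov. Its folds with 1 library left out ran from -0.47 to 6.52, against 0.80 to 10.01 for Ctgf, 1.18 to 8.54 for Cyr61, 0.69 to 3.85 for Wisp1 and 1.06 to 5.14 for Wisp2. The count of members called was 0 by the authors' FDR and 0 by limma, against 4 at the authors' unadjusted p below 0.05 and 0 at limma's on log2(RPKM + 1). Limma on log2(RPKM + 1) gave folds of 4.22 for Ctgf, 4.18 for Cyr61, 1.59 for Nov and 1.54 for Wisp2. Wisp1 did not pass its filter of 1 RPKM in 2 libraries, and was at 0.96 without the filter. Limma called 0 of 6850 genes, with 768 at an unadjusted p below 0.05, against 3 in the authors' table. Collection numbers are attached to no value, so limma was run with each possible pairing of libraries as a replicate block. Such a balanced block cannot change the folds, at 4.86 for Cyr61, 3.02 for Nov, 2.27 for Wisp1 and 3.10 for Wisp2. Their lowest adjusted p was 0.352 with the libraries of 32.0 and 17.0 M reads paired and 0.9996 with the other pairing. Ctgf, without an assignment, was left out of the block fits. Under the first pairing limma's unadjusted p ran from 0.0145 to 0.0460 over the 4 members, beside 13.5% of 10440 genes below 0.05. Without the negative library of 17.0 M reads it ran from 0.00187 to 0.143 over the 5, beside 10.4% of genes. Differences between the positive libraries of 32.0 and 41.6 M reads correlated with those between the negative ones of 17.0 and 74.0 M at 0.409 across 10440 genes, which are not independent; the labels give no such pairing. List medians over assigned genes with 1 library left out ran from 0.077 to 0.81 for the Hippo genes, -0.17 to 1.01 for YAP and TEAD targets, 0.27 to 1.46 for receptors and -0.45 to -0.082 for immediate early genes. The last median was -0.21 on its 10 assigned members, a restriction chosen after seeing the data, and -0.29 with median-of-ratios scaling, so its sign depends on the genes that could be assigned.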
